A study of Mus musculus with 24 samples.

Results

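The 9 genes described here encode secreted class 3 semaphorins (*Sema3a*, *Sema3c*, *Sema3d* and *Sema3e*) and the neuropilins (*Nrp1* and *Nrp2*) and plexins (*Plxna2*, *Plxna4* and *Plxnd1*) that receive them. They were chosen by name from the 19938 genes that could be tested. The rule used no measured value, but the choice was made with earlier results of these data known. Affymetrix mouse Gene ST arrays were used to measure RNA from the dissected anterior heart field (AHF) of E9.5 embryos with 19 to 21 somite pairs, with 4 mutant and 4 control arrays in each of 3 experiments, 24 arrays in all. *Tbx1 LOF* embryos were Mef2c-AHF-Cre/+;Tbx1 f/- or Mef2c-AHF-Cre/+;Tbx1 f/f, *β-cat LOF* embryos were Mef2c-AHF-Cre/+;β-catenin f/f, and rescue embryos had the *Tbx1 LOF* genotype plus 1 β-catenin flox allele. The methods for the arrays give the controls as flox carriers without Cre (Tbx1 f/+, β-catenin f/+ and Tbx1 f/+;β-catenin f/+), while the account of the *Tbx1* crosses also names wild type and Cre-carrying Tbx1 f/+ littermates as controls. The Cre transgene acts in the AHF mesoderm and its derivatives, while the dissected tissue took in pharyngeal arches 2 to 6 and so also held neural crest, endothelium, endoderm and ectoderm. Embryos of a genotype were pooled before RNA extraction, and 100 ng of total RNA was amplified per array. Nothing in the labels says which arrays came from separate pools, so the p-values measure the spread between these arrays, part of which may be technical.

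Class 3 semaphorins are secreted guidance cues. Most of them bind a neuropilin, which has little signalling activity of its own, in a complex with a class A plexin, and the plexin passes the signal to small GTPases and to proteins of the cytoskeleton. *Sema3e* is the exception in this set, since its protein binds plexin D1 directly. In the mouse, *Sema3c* is needed for cardiac neural crest cells to enter the outflow tract and for its septation, *Plxnd1* acts in endothelium and its loss also leaves the outflow tract unseptated, and *Nrp1* is in addition a co-receptor for VEGF in blood vessels. *Tbx1* encodes a T-box transcription factor, and β-catenin acts in canonical Wnt signalling with TCF/LEF factors, so short strings of these factor families were looked for in the promoters.

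Promoter windows of 300 bases (250 before to 50 after the start, RefSeq, GRCm38.p6) were given for 8 of the 9 genes, the exception being *Plxna4*. Each window was searched on both strands for a T-box string, AGGTGT, for 4 TCF/LEF strings that share CTTTG and go on with AA, with AT, with TA or with TT, and for a GATA string, AGATAA. A TCF/LEF string was present in 4 of the 8 windows, those of *Sema3c*, *Sema3d*, *Sema3e* and *Nrp2*, and in 16.9% of all 32851 promoter windows. The T-box string was present in 1 of the 8, that of *Sema3d*, and in 13.7% of all windows, and the GATA string was present in 0 of the 8 and in 11.2% of all windows. The windows with a match are shown because they hold the letters the search found, in capitals, the rest being in lower case. All 4 lie on the plus strand of the genome. For *Sema3c* the stretch is chr5:17574716-17574835, for *Sema3d* chr5:12382926-12382980, for *Sema3e* chr5:14025137-14025183 and for *Nrp2* chr1:62703151-62703197.
Sema3c: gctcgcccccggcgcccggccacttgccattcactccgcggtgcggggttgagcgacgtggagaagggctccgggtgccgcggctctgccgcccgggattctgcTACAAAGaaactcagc
Sema3d: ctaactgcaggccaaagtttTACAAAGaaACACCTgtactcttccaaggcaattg
Sema3e: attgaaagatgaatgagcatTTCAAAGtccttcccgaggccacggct
Nrp2: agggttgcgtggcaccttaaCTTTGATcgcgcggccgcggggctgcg
The capitals mark the TCF/LEF string, read on the minus strand in the 3 semaphorins and on the plus strand in *Nrp2*, and in *Sema3d* also the T-box string on the minus strand, which does not overlap the other. These matches describe letters in a window and were not tested as binding sites. The 4 semaphorin genes all lie on chromosome 5. No protein-coding gene lies between *Sema3d* and *Sema3a* in the RefSeq table, 3 lie between *Sema3a* and *Sema3e*, and 15 between *Sema3e* and *Sema3c*.

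Every value below is a log2 signal made by RMA, a method that corrects the background, brings all arrays to 1 distribution and summarizes the probes of a gene. A difference is the mean of the mutant arrays minus the mean of their own control arrays, with the standard error (SE) of a limma fit over all 24 arrays. Each of the 9 genes had 1 probe set and none shared with another gene, and all 9 passed a filter that kept the 14953 genes with a mean at or above the 25th percentile. Signals of different genes come from different probes and are not set against each other. *Tbx1* itself read 10.98, 11.28, 11.43 and 11.40 in *Tbx1 LOF*, against 11.91, 11.77, 11.98 and 11.99 in its controls, and the groups did not overlap (log2 difference −0.64, SE 0.09, adjusted p = 0.00626). In rescue it read 11.39, 11.49, 11.51 and 11.49, against 11.83, 11.95, 11.75 and 11.58 in the controls (log2 difference −0.31, SE 0.09, adjusted p = 0.9999), again without overlap. *Ctnnb1*, which encodes β-catenin, differed by −0.03 (SE 0.06) in *β-cat LOF*. Whether its probe set covers the deleted exons is not known, so the value is no check of the β-catenin labels. The mean signal of 9 AHF markers lay between 10.21 and 10.52 over the 24 arrays.

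None of the 9 genes differed between mutant and control arrays at an adjusted p under 0.05. In *Tbx1 LOF*, *Sema3c* had the largest difference of the set, at −0.28. In *β-cat LOF* it was *Sema3a*, at −0.27, and in rescue *Sema3e*, at −0.33, followed by *Plxna4* and *Sema3c*. All 5 of these differences were lower in the mutant arrays and had an unadjusted p under 0.05, and the neuropilins, *Plxna2*, *Plxnd1* and *Sema3d* did not pass even that threshold in any of the 3 comparisons. Because the tissue is bulk, fewer cells that express a gene and less RNA per cell cannot be told apart. The median log2 difference of the 9 genes was −0.04 in *Tbx1 LOF*, 0.00 in *β-cat LOF* and −0.08 in rescue, against −0.01, 0.01 and −0.02 over all genes tested.

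The calls are to be read against the share of all 19938 genes that passed the same rule. In *Tbx1 LOF*, 0 of the 9 genes and 0.0301% of all genes passed an adjusted p under 0.05. Before adjustment, 1 of the 9 was lower and 0 were higher, against 1.95% lower and 2.17% higher of all genes. In *β-cat LOF*, 0 of the 9 genes and 0% of all genes passed the adjusted threshold, and 1 of the 9 was lower and 0 higher at the unadjusted one, against 2.88% lower and 2.83% higher of all genes. In rescue, 0 of the 9 genes and 0% of all genes passed the adjusted threshold, and 3 of the 9 were lower and 0 higher at the unadjusted one, against 0.898% lower and 0.371% higher of all genes. A stricter pair of limits used in the study, an unadjusted p under 0.05 with a fold over 1.5, was met by 0 of the 9 genes in each comparison, and by 0.326% of all genes in *Tbx1 LOF*, 0.451% in *β-cat LOF* and 0.0100% in rescue.

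**Figure D1:**
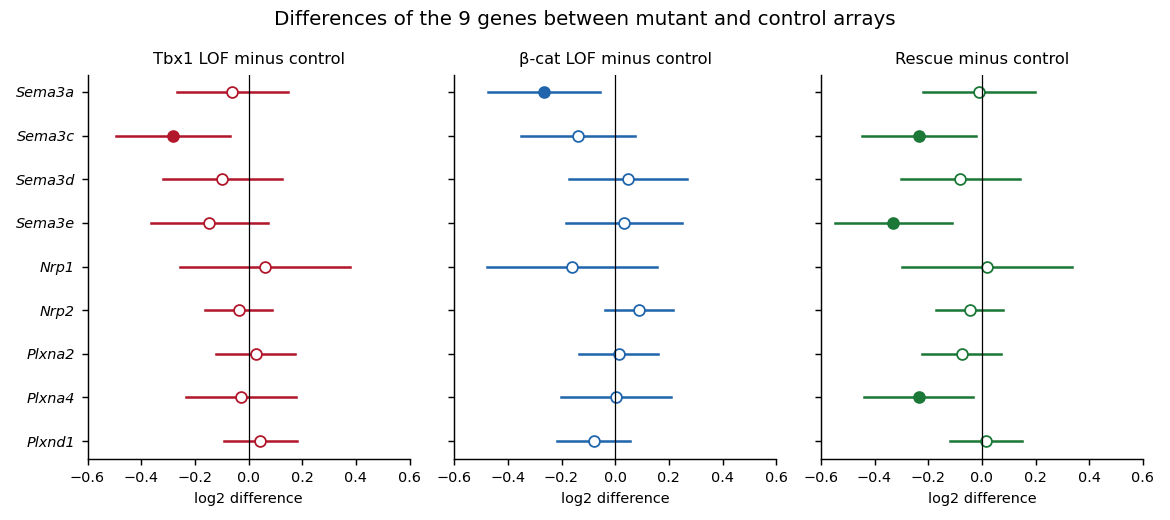
Log2 difference (mutant minus control, x axis) of each of the 9 genes in the 3 comparisons, with the 95% confidence interval of the limma fit (n = 4 arrays per group). Filled points had an unadjusted p under 0.05: *Sema3c* in *Tbx1 LOF*, *Sema3a* in *β-cat LOF*, and *Sema3c*, *Sema3e* and *Plxna4* in rescue, all on the lower side, and none passed adjustment.

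*Sema3c*, whose product guides cardiac neural crest into the outflow tract, read 10.07, 9.88, 9.62 and 9.75 in *Tbx1 LOF*, against 10.32, 10.09, 10.03 and 10.01 in the controls. Mutant array 1 lay within the control range and the other 3 lay below every control. The log2 difference was −0.28 (SE 0.10), a fold of 0.822 (95% confidence interval 0.710 to 0.952), with an unadjusted p of 0.0112 and an adjusted p of 0.860 in limma and p = 0.0857 in the two-sided exact permutation test. In rescue the 4 arrays read 9.77, 9.68, 9.75 and 9.76, against 10.13, 9.94, 9.83 and 9.98 in the controls. Here all 4 mutant arrays lay below all controls, with a difference of −0.23 (SE 0.10, unadjusted p = 0.0322, adjusted p = 0.9999), and the exact test gave 0.0286, the smallest p that 4 against 4 arrays allow. In *β-cat LOF* the values were 10.23, 10.29, 9.89 and 9.87, against 10.21, 10.36, 10.20 and 10.05 in the controls. Arrays 1 and 2 of the mutant lay among the controls and arrays 3 and 4 below them, and the difference of −0.14 (95% confidence interval −0.35 to 0.07) did not pass (unadjusted p = 0.190). *Sema3c* was therefore the gene of the set with a difference of the same sign and an unadjusted p under 0.05 in 2 experiments, which do not share controls. Neither difference passed adjustment. Nor was the difference in *Tbx1 LOF* told apart from that in *β-cat LOF* (−0.14, 95% confidence interval −0.44 to 0.16).

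*Sema3a*, best known as a repellent of growing axons, read 10.82, 10.76, 10.62 and 10.54 in *β-cat LOF*, against 10.90, 11.11, 10.87 and 10.90 in the controls. All 4 mutant arrays lay below all 4 controls, and control array 2 stood above the rest of its group. The difference was −0.27 (SE 0.10), a fold of 0.832 (95% confidence interval 0.720 to 0.961), with an unadjusted p of 0.0147, an adjusted p of 0.819 and an exact p of 0.0286. Without control array 2 it was −0.21 (unadjusted p = 0.0608). That array also held the highest myocardial marker mean of the 24, 12.52, and whether this has a part in the difference was not tested. In *Tbx1 LOF*, *Sema3a* averaged 10.65 ± 0.19, against 10.71 ± 0.06 in the controls (SD, n = 4 each), with 2 mutant arrays above and 2 below all controls. In rescue it averaged 10.59 ± 0.08, against 10.60 ± 0.24 in the controls. Neither difference exceeded its error, the 95% confidence intervals running from −0.27 to 0.15 in *Tbx1 LOF* and from −0.22 to 0.20 in rescue.

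*Sema3e*, the ligand of plexin D1, read 7.60, 7.64, 7.45 and 7.48 in rescue, against 7.90, 8.16, 7.83 and 7.59 in the controls. Mutant arrays 3 and 4 lay below every control, while arrays 1 and 2 lay above control array 4, so the groups overlapped. The difference was −0.33 (SE 0.10), a fold of 0.795 (95% confidence interval 0.684 to 0.925), with an unadjusted p of 0.00458, an adjusted p of 0.9999 and an exact p of 0.0857. In *Tbx1 LOF* it averaged 7.93 ± 0.25, against 8.08 ± 0.09 in the controls, and the interval of the difference ran from −0.36 to 0.07. In *β-cat LOF* it averaged 7.96 ± 0.09, against 7.93 ± 0.09 in the controls, and the interval ran from −0.19 to 0.25.

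*Sema3d*, which in the mouse takes part in the patterning of the pulmonary veins, averaged 9.89 ± 0.22 in *Tbx1 LOF*, against 9.99 ± 0.06 in the controls, and mutant array 3 alone lay below all controls at 9.56. In *β-cat LOF* it averaged 10.09 ± 0.19, against 10.04 ± 0.17 in the controls. In rescue it averaged 10.04 ± 0.10, against 10.12 ± 0.17 in the controls. The groups overlapped in all 3 comparisons, and the 95% confidence intervals ran from −0.32 to 0.12 in *Tbx1 LOF*, from −0.17 to 0.27 in *β-cat LOF* and from −0.30 to 0.14 in rescue.

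**Figure D2:**
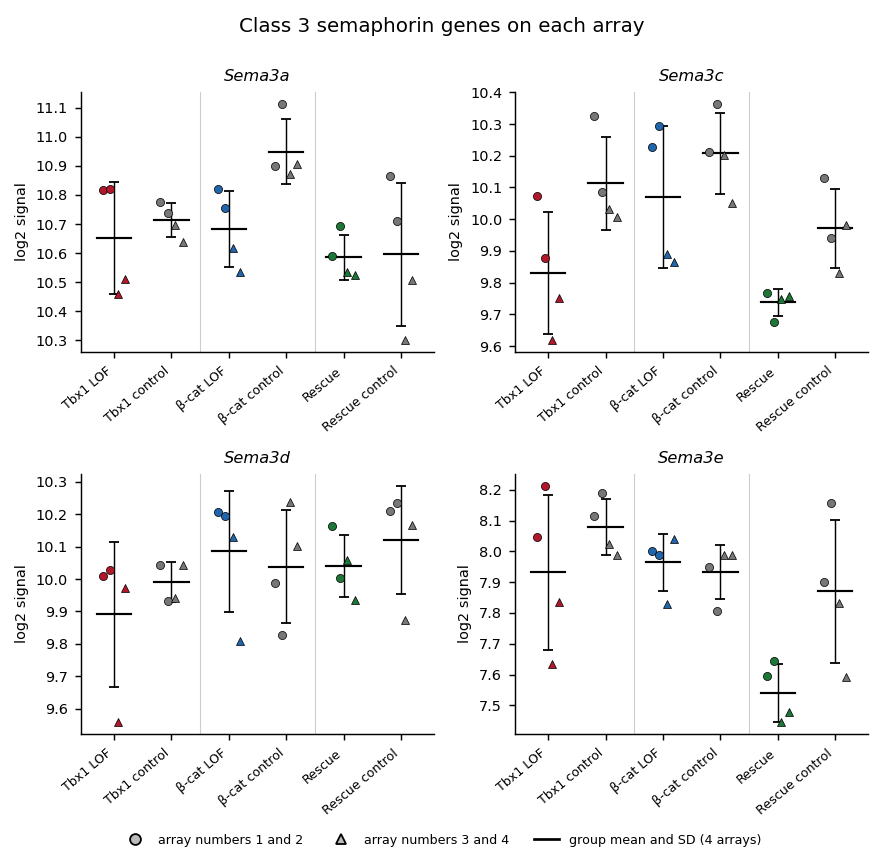
Log2 signal of *Sema3a*, *Sema3c*, *Sema3d* and *Sema3e* on each of the 24 arrays, mutant groups left of their controls, with the group mean and SD (n = 4). Circles are arrays numbered 1 and 2 and triangles arrays numbered 3 and 4. The 4 rescue arrays of *Sema3c* (9.68 to 9.77) and the 4 *β-cat LOF* arrays of *Sema3a* (10.54 to 10.82) sit below all of their controls.

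*Nrp1*, the neuropilin shared by semaphorins and VEGF, varied more between arrays of a group than any other gene of the set, with a residual SD of 0.238, against a median of 0.112 over all genes. It read 11.25, 11.14, 10.59 and 10.80 in *Tbx1 LOF*, against 11.10, 11.20, 10.65 and 10.59 in the controls. It read 11.11, 10.93, 10.80 and 10.62 in *β-cat LOF*, against 11.07, 11.36, 10.96 and 10.71 in the controls. Mutant and control arrays overlapped in both experiments, and within each of these groups arrays 1 and 2 read higher than arrays 3 and 4. In rescue it averaged 10.61 ± 0.13, against 10.59 ± 0.13 in the controls. Its confidence intervals, the widest of the set, ran from −0.26 to 0.38 in *Tbx1 LOF*, from −0.48 to 0.16 in *β-cat LOF* and from −0.30 to 0.34 in rescue. They come from a fit without array number. With array number (1 and 2 against 3 and 4 in each experiment) as a term, the SE of an *Nrp1* difference between control groups was 0.0857, against 0.153 without it.

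*Nrp2*, the other neuropilin, had the smallest residual SD of the set, 0.0811. It averaged 10.93 ± 0.07 in *Tbx1 LOF*, against 10.97 ± 0.15 in the controls, 11.08 ± 0.04 in *β-cat LOF*, against 10.99 ± 0.07 in the controls, and 10.92 ± 0.03 in rescue, against 10.96 ± 0.07 in the controls. The largest of these differences, 0.09 in *β-cat LOF*, had an interval of −0.04 to 0.22. The 3 intervals lay between −0.17 and 0.22.

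*Plxna2*, a plexin of migrating neural crest cells, averaged 11.04 ± 0.13 in *Tbx1 LOF*, against 11.02 ± 0.09 in the controls, 11.05 ± 0.17 in *β-cat LOF*, against 11.04 ± 0.08 in the controls, and 10.95 ± 0.03 in rescue, against 11.02 ± 0.03 in the controls. In rescue 3 of the 4 arrays lay below all controls (difference −0.08, SE 0.07, exact p = 0.0571). *Plxna4*, a plexin studied chiefly in axon guidance, read 10.68, 10.70, 10.58 and 10.56 in rescue, against 10.79, 11.03, 10.89 and 10.75 in the controls. All 4 rescue arrays lay below all controls, with a difference of −0.24 (SE 0.10), a fold of 0.849 (95% confidence interval 0.737 to 0.978), an unadjusted p of 0.0255, an adjusted p of 0.9999 and an exact p of 0.0286. It averaged 10.77 ± 0.14 in *Tbx1 LOF*, against 10.80 ± 0.14 in the controls, and 10.92 ± 0.11 in *β-cat LOF*, against 10.91 ± 0.25 in the controls. *Plxnd1*, the endothelial receptor of *Sema3e*, averaged 11.41 ± 0.14 in *Tbx1 LOF*, against 11.36 ± 0.08 in the controls, 11.45 ± 0.05 in *β-cat LOF*, against 11.53 ± 0.12 in the controls, and 11.51 ± 0.05 in rescue, against 11.49 ± 0.05 in the controls. Its 3 intervals lay between −0.22 and 0.18, so *Plxnd1* showed no difference beyond its spread in any comparison, including rescue, where its ligand read lower.

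**Figure D3:**
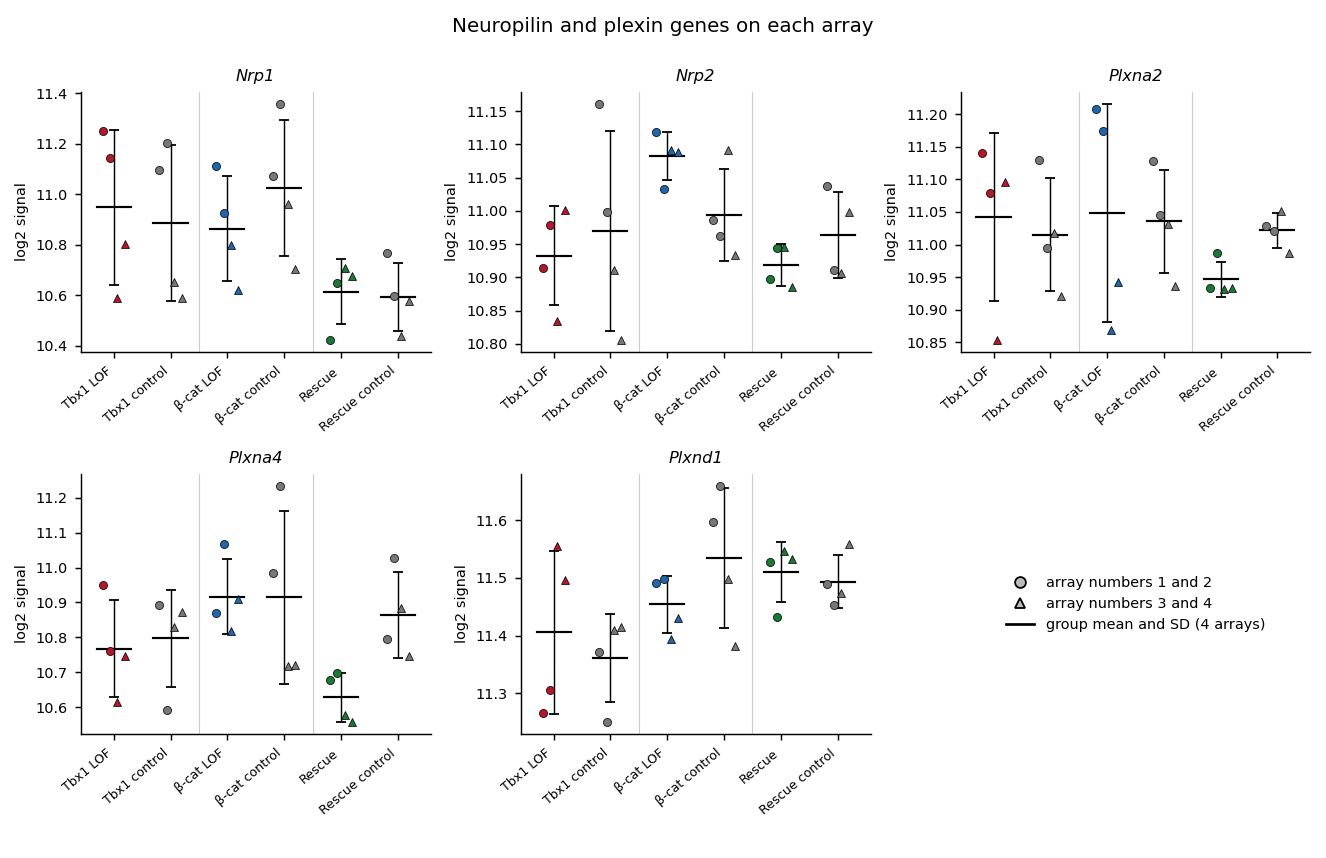
Log2 signal of *Nrp1*, *Nrp2*, *Plxna2*, *Plxna4* and *Plxnd1* on each of the 24 arrays, mutant groups left of their controls, with the group mean and SD (n = 4). *Plxna4* in rescue (10.56 to 10.70) sits below all of its controls, and *Nrp1* separates arrays 1 and 2 (circles) from arrays 3 and 4 (triangles) in every group.

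Groups of 4 and 4 arrays that did not overlap were found for 0 of the 9 genes in *Tbx1 LOF*, where 0.973% of all genes were lower and 1.32% higher without overlap. In *β-cat LOF* this held for 1 of 9, *Sema3a*, which was lower, against 0.787% lower and 2.06% higher of all genes. In rescue it held for 2 of 9, *Sema3c* and *Plxna4*, both lower, against 2.24% lower and 0.737% higher of all genes.

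The *Tbx1 LOF* difference was also set directly against that of each other mutant. Of the 9 genes, 0 passed in either test. The share of all genes at an adjusted p under 0.05 was 0.0502% for *Tbx1 LOF* minus *β-cat LOF* and 0% for *Tbx1 LOF* minus rescue. At an unadjusted p under 0.05, 3.04% of all genes were lower and 3.41% higher in the test against *β-cat LOF*, and 0.767% lower and 0.943% higher in the test against rescue, with 0 of the 9 genes on either side. For *Sema3c* the difference in *Tbx1 LOF* minus that in rescue was −0.05 (95% confidence interval −0.35 to 0.25), and minus that in *β-cat LOF* it was −0.14 (−0.44 to 0.16). For *Sema3a*, *Tbx1 LOF* minus *β-cat LOF* was 0.20 (−0.09 to 0.50). For *Sema3e* and *Plxna4*, *Tbx1 LOF* minus rescue was 0.18 (−0.12 to 0.49) and 0.21 (−0.08 to 0.50). A lower value in 1 experiment was thus not shown to be particular to it for any of these genes.

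The means of the control groups also differed between experiments. *Sema3a* averaged 10.60 in the rescue controls, against 10.95 in the *β-cat* controls (difference −0.35, 95% confidence interval −0.56 to −0.14, adjusted p = 0.162). *Nrp1* averaged 10.59 in the rescue controls, against 11.02 in the *β-cat* controls (difference −0.43, −0.75 to −0.11, adjusted p = 0.231). *Plxnd1* averaged 11.53 in the *β-cat* controls, against 11.36 in the *Tbx1* controls (difference 0.17, 0.04 to 0.31, adjusted p = 0.244). None of the 27 differences of the 9 genes between control groups passed adjustment, where 0.562% of all genes passed for the *β-cat* against the *Tbx1* controls, 0.0251% for the rescue against the *Tbx1* controls and 0.0652% for the rescue against the *β-cat* controls. With a term for array number added to the fit, 4 of the 27 passed: *Sema3a* and *Plxnd1* for the *β-cat* against the *Tbx1* controls, where 5.25% of all genes passed, and *Sema3a* and *Nrp1* for the rescue against the *β-cat* controls, where 3.90% passed. For the rescue against the *Tbx1* controls 0 of the 9 and 1.79% of all genes passed. Mouse background, experiment and hybridization cannot be told apart between the control groups. When the 6 group means of each gene were put in order, 4 of the 45 steps between neighbours were larger than the gene's residual SD: *Sema3a* in the *β-cat* controls above the *Tbx1* controls, *Sema3e* in rescue below the rescue controls, *Nrp1* in rescue below *β-cat LOF*, and *Nrp2* in *β-cat LOF* above the *β-cat* controls.

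Arrays of a group that carried the numbers 1 and 2 differed from those that carried 3 and 4. *Nrp1* was higher in arrays 1 and 2 by 0.50 in *Tbx1 LOF* and 0.53 in its controls, by 0.31 in *β-cat LOF* and 0.38 in its controls, and by 0.17 in the rescue controls, whereas in rescue it was lower by 0.16. No array of 1 set overlapped the other in any of the 6 groups. *Sema3a* was higher in arrays 1 and 2 in all 6 groups, by 0.09 to 0.38, and *Sema3c* in 5 of 6. *Plxnd1* went the other way in the *Tbx1* experiment, at −0.24 in *Tbx1 LOF* and −0.10 in its controls. Sets without overlap were common among all genes, 31.7% being higher and 22.6% lower in arrays 1 and 2 of *Tbx1 LOF* (6 and 1 of the 9 genes), and 45.9% higher and 14% lower in those of its controls (5 and 1 of 9). In *β-cat LOF* 24.6% were higher and 23.2% lower (6 and 0 of 9), and in its controls 22.1% and 27% (5 and 2 of 9). In rescue 13.7% were higher and 24.8% lower (4 and 2 of 9), and in its controls 13.8% and 17.6% (4 and 0 of 9). The paper reports that arrays were run in several batches, with clear batch effects above all in the *β-cat LOF* and *Tbx1 LOF* data. It also excluded some arrays of poor quality. The labels do not say that the array numbers stand for a batch, and what lies behind them was not tested. Within arrays 1 and 2 and within arrays 3 and 4, the difference of *Sema3c* was −0.23 and −0.33 in *Tbx1 LOF* and −0.31 and −0.15 in rescue. That of *Sema3a* in *β-cat LOF* was −0.22 and −0.31, that of *Sema3e* in rescue −0.41 and −0.25, and that of *Plxna4* in rescue −0.22 and −0.25, so all 5 kept their sign in both sets. With array numbers 1 and 2 against 3 and 4 as a term for each experiment, the unadjusted limma p was 7.4e-04 for *Sema3c* in *Tbx1 LOF*. It was 8.5e-04 for *Sema3a* in *β-cat LOF* and 3.6e-04 for *Sema3e* in rescue, and the adjusted p was 0.172, 0.192 and 0.949. The labels do not give this split, and the term takes out a pattern seen in these same values. The lower p-values are therefore not independent support.

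**Figure D4:**
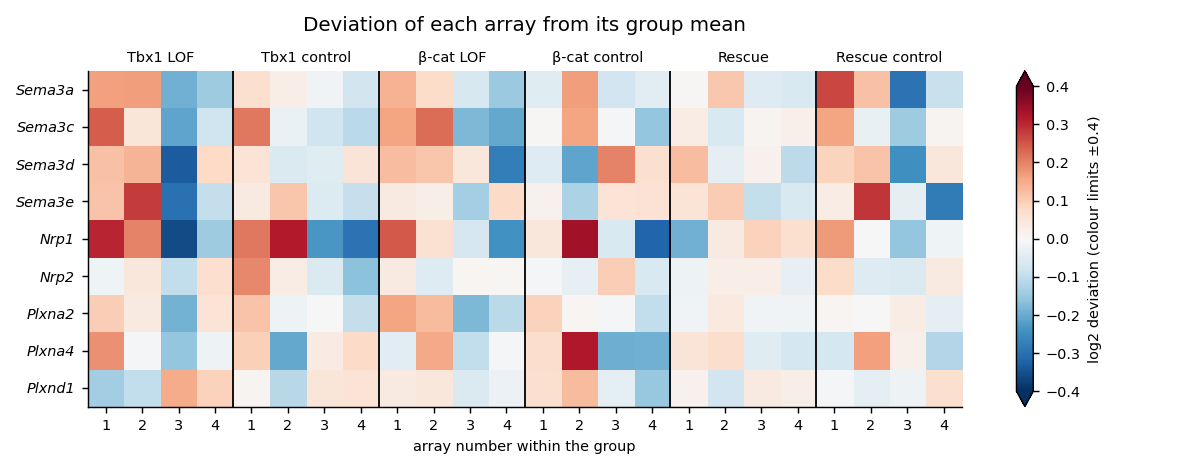
Deviation (log2) of each array from the mean of its group for the 9 genes (rows) on the 24 arrays (columns, by group and array number), red above and blue below the group mean. Arrays 1 and 2 of *Tbx1 LOF* are above and arrays 3 and 4 below for *Sema3a*, *Sema3e* and *Nrp1*, while *Plxnd1* shows the opposite sign there.

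After the group means were taken out, the 9 genes varied together over the 24 arrays in part. Of the 36 pairs, 28 had a positive Pearson correlation, with a median of 0.374. The highest were *Sema3c* with *Nrp1* (0.785), *Sema3c* with *Plxna2* (0.775), *Sema3a* with *Sema3c* (0.735) and *Sema3a* with *Nrp1* (0.71). The lowest was that of *Sema3e* with *Plxnd1*, the ligand and its own receptor, at −0.684 (Spearman −0.776). Over all genes tested, the gene with residuals most like those of *Nrp1* was *Tek*, which encodes an endothelial receptor (0.961), then *Fig4* (0.95) and *Dld* (0.94). For *Plxnd1* these were *Jag2*, a Notch ligand (0.879), *Tns1* and *Pik3c2b*, and for *Sema3c* they were *Ggcx* (0.92), *Cerk* and *Dnmbp*. *Plxna4* was closest to *Tead1* (0.928), *Plekha7* and *Pkp4*, *Sema3d* to *Marveld2* (0.921), *Ptprj* and *Nucb2*, and *Plxna2* to *Acaca* (0.898), *Sdad1* and *B3galnt2*. *Sema3a* was closest to *Rabgap1l* (0.872), *Glcci1* (0.872) and *Ube2q2*, *Nrp2* to *Kcna6* (0.796), *Smarca5* and *Pgm2*, and *Sema3e* to *Kbtbd2* (0.763), *Zcchc12* and *Sfxn1*. These are descriptions over 24 arrays that share experiment, array number and normalization.

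Other genes of the pathway were described by the same tests. Of 16 other semaphorins, 1 was lower before adjustment in *Tbx1 LOF*, *Sema3g* (−0.13, SE 0.06), and 2 were higher in *β-cat LOF*, *Sema5b* (0.35, SE 0.09, unadjusted p = 9.8e-04, adjusted p = 0.593) and *Sema4a* (0.12, SE 0.05). None of the 16 passed in rescue. *Sema5b* was also the semaphorin with the clearest contrast between mutants, its difference in *Tbx1 LOF* minus that in *β-cat LOF* being −0.53 (SE 0.13, adjusted p = 0.123). Of 6 other plexins, *Plxnc1*, the receptor of semaphorin 7A, was lower in *β-cat LOF* (−0.38, SE 0.16, unadjusted p = 0.0303), and the other 5 did not pass in any comparison of a mutant with its controls. Of 12 co-receptors and VEGF genes, *Vegfc*, a growth factor of lymphatic vessels, was higher in rescue (0.18, SE 0.07, unadjusted p = 0.0251), and in the remaining 2 comparisons with controls none passed. *L1cam* had an unadjusted p of 0.0307 in the test of *Tbx1 LOF* against *β-cat LOF* (−0.24, SE 0.11).

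Among 23 measured intracellular effectors, *Mical2*, an oxidizing enzyme of actin, was higher in *Tbx1 LOF* (0.66, SE 0.25, unadjusted p = 0.0156) and lower in *β-cat LOF* (−0.73, SE 0.25, unadjusted p = 0.00794), a difference between the mutants of 1.39 (SE 0.36, adjusted p = 0.142). *Rnd1*, a small GTPase that binds plexins, was lower in *Tbx1 LOF* (−0.20, SE 0.06, unadjusted p = 0.00579) and by the same amount in rescue (−0.20, SE 0.06, unadjusted p = 0.00501). *Rnd3* was lower in *Tbx1 LOF* (−0.15, SE 0.07, unadjusted p = 0.0430). *Dpysl3*, a collapsin response mediator protein, was lower in *β-cat LOF* (−0.43, SE 0.13, unadjusted p = 0.00271), as was *Rnd2* (−0.36, SE 0.16, unadjusted p = 0.0368). None of these genes passed an adjusted p of 0.05 over all genes. The list had 1 higher and 2 lower in *Tbx1 LOF*, 0 higher and 3 lower in *β-cat LOF* and 0 higher and 1 lower in rescue at the unadjusted threshold, and its median log2 difference was −0.01, −0.03 and 0.00 in the 3 comparisons.

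**Figure D5:**
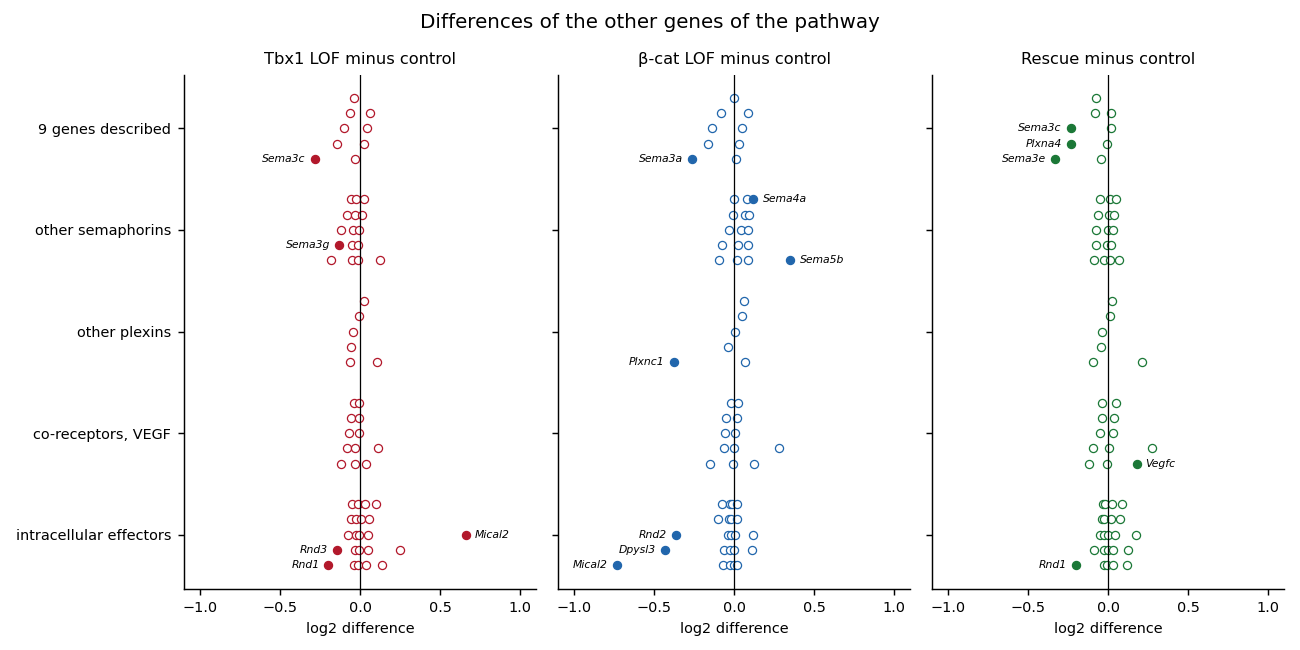
Log2 difference (mutant minus control, x axis) of the 9 genes and of other semaphorins (16), other plexins (6), co-receptors and VEGF genes (12) and intracellular effectors (23), 1 point per gene with a vertical offset for legibility. Filled, named points had an unadjusted p under 0.05, and none passed adjustment. *Mical2* lies at 0.66 in *Tbx1 LOF* and at −0.73 in *β-cat LOF*.

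Of 14 measured transcription factors of the outflow tract, 7 were higher and 3 lower in *Tbx1 LOF* before adjustment (p under 0.05), among them *Hand2* (0.25, SE 0.06) and *Gata5* (0.42, SE 0.11). *Tbx1* itself was the one that passed adjustment, in the fit as reported and not in all other settings. In *β-cat LOF* 1 was higher and 5 lower, among them *Gata4* (−0.59, SE 0.25), *Tbx2* (−0.16, SE 0.07) and *Tbx20* (−0.45, SE 0.21). In rescue 1 was lower, *Tbx1*.

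Markers of other cell types moved with the same comparisons. In *Tbx1 LOF*, where *Sema3c* read lower, the mean of 11 neural crest markers lay between 10.0385 and 10.2128, against 10.2195 to 10.3545 in the controls. The groups did not overlap, but the gap was narrow. All 11 had a negative difference, and *Tfap2b* (−0.34, SE 0.11) and *Ets1* (−0.17, SE 0.08) had an unadjusted p under 0.05. All 12 neural tube markers also had a negative difference there, and 1 of them had an unadjusted p under 0.05. The median difference was −0.18 for the neural tube markers and −0.13 for the neural crest markers. The neural tube means overlapped, at 8.09 to 9.22, against 8.62 to 9.075 in the controls. In rescue, where *Sema3c* also read lower, the neural crest mean lay between 10.2971 and 10.3644, against 10.3656 to 10.4399 in the controls, barely apart. Of the 11 markers, 8 had a negative and 3 a positive difference in rescue, and 0 passed. Myocardial markers were higher in *Tbx1 LOF* (9 of 12 at an unadjusted p under 0.05, mean 10.649 to 11.003, against 9.62 to 10.26 in the controls), and so were 4 of 8 liver and gut markers. In *β-cat LOF*, where *Sema3a* read lower, 6 of 11 endothelial markers were lower, with a mean of 10.50 to 10.58, against 10.59 to 10.80 in the controls, and *Tek* (−0.37, SE 0.14), *Pecam1* (−0.24, SE 0.09) and *Emcn* (−0.16, SE 0.07) among them. There, 2 of 11 neural crest markers, *Sox10* (0.25, SE 0.09) and *Erbb3* (0.15, SE 0.07), were higher, and 10 of the 11 had a positive difference. In addition, 11 of 12 myocardial markers were lower. The myocardial means overlapped, at 9.82 to 10.41, against 10.27 to 12.52 in the controls, where array 2 was the highest. Of the neural tube markers, 4 of 12 were higher, with a neural tube mean of 8.59 to 8.75, against 8.31 to 8.51 in the controls. In rescue all 12 neural tube markers had a positive difference and 0 passed, and *Fgf10*, an AHF gene, was lower (−0.47, SE 0.11, unadjusted p = 2.1e-04), as it was in *Tbx1 LOF* (−0.39, SE 0.11). The AHF list as a whole went both ways. Of its 9 markers, 5 had a positive and 4 a negative difference in *Tbx1 LOF*, with a median of 0.035. In rescue 3 were positive and 6 negative, with a median of −0.027. Pharyngeal endoderm had 1 marker lower in *Tbx1 LOF*, *Pax9* (−0.36, SE 0.09), 1 higher in *β-cat LOF*, *Cdh1*, and 1 higher in rescue, *Foxa2*. Of 6 genes listed as surface ectoderm markers, *Krt8* (0.27, SE 0.07) and *Krt18* (0.16, SE 0.06) were higher in *Tbx1 LOF*. The rest of that list (*Trp63*, *Krt5*, *Krt14* and *Grhl3*) did not pass there. In *β-cat LOF*, *Krt14* (0.16, SE 0.07) was higher. None of 5 erythroid markers passed in any comparison. None of the markers passed adjustment in a comparison of a mutant with its controls other than *Tbx1* in *Tbx1 LOF*, and the part of these markers in the differences of the semaphorin genes was not tested.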

How the data were processed

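Values were taken from a table of 35556 probe sets on 24 arrays. The authors made these deposited log2 values with RMA, run in oligo (version not stated), which corrects background, equalizes the arrays and summarizes probes per gene. The medians of the deposited arrays were still not equal (8.00 to 8.14). Their methods add ComBat and a batch block. The labels name no batch for an array, so neither step was repeated here, and it is unknown if the deposited values were ComBat-adjusted. Probe sets with 1 gene symbol (21789) were kept and averaged per gene, which left 19938 genes. Those left out named several genes (1621) or no gene (12146).

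Groups were compared with limma 3.58.1 in R 4.3.3, with 1 mean per group over 24 arrays (18 residual degrees of freedom) and Benjamini-Hochberg adjustment over all genes, and by two-sided exact permutation tests of 4 against 4 arrays. The script was tested on simulated data with independent noise for each gene and array. Those data had no difference between array numbers, so the test does not show how the p-values behave in its presence. The number of arrays limits the precision. Figures used matplotlib 3.10.9 in Python 3.11.15. The 9 genes and all lists were chosen with earlier results of these data known. Genes named are the 9, *Tbx1* and *Ctnnb1*, list genes at an adjusted p under 0.05, up to 3 per list and comparison with the smallest unadjusted p under 0.05, and the 3 genes whose residuals were most like those of each of the 9. Some list members are not reported here.

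Array numbers 1 to 4 recur in mutants and controls. In all 4 same-numbered pairs of the *Tbx1* experiment the deviations correlated (r from 0.158 to 0.494), but only 1 of 4 correlated best with its own number. A pairing by number is thus one looked for in the data. The fit and the exact tests reported above used no pairing, and the pairs entered only as a block among the alternatives. In the *β-cat* experiment 3 of 4 and in rescue 1 of 4 pairs were over 0.1. Alternatives were the pairs as a block, array number (1 and 2 against 3 and 4) as a term, array weights, other scalings, filters and probe-set rules, and each array left out.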

Additional observations from a re-analysis of the deposited data

Results flagged for a closer look

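In 4 of 54 groups of 4 arrays, 1 array lay apart from the other 3 by more than Dixon's critical value for the gap over the group's range, which chance passes in about 5% of groups. *Sema3a* read 11.11 in *β-cat* control array 2, against 10.87 to 10.90 in the other 3 controls. *Sema3d* read 9.56 in *Tbx1 LOF* array 3, against 9.97 to 10.03 in the other 3. *Plxna2* read 10.99 in rescue array 2, against 10.93 in the other 3, a group with an SD of 0.03. *Plxnd1* read 11.43 in rescue array 2, against 11.53 to 11.55 in the other 3.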

How the results depend on the processing

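The 45 differences of the 9 genes were recomputed under 34 other settings, 24 of which left out 1 array. None of the 1530 values passed an adjusted p of 0.05. The 5 differences at an unadjusted p under 0.05 stayed negative under all 34 settings: *Sema3c* between −0.36 and −0.18 in *Tbx1 LOF* and between −0.28 and −0.18 in rescue, *Sema3a* between −0.31 and −0.19 in *β-cat LOF*, *Sema3e* between −0.42 and −0.23 and *Plxna4* between −0.27 and −0.18 in rescue. *Sema3e* kept an unadjusted p under 0.05 in all 34, and each of the others in 31. It was lost for *Sema3c* in *Tbx1 LOF* without *Tbx1 LOF* array 3 (−0.21) or *Tbx1* control array 1 (−0.21), for *Sema3a* without *β-cat LOF* array 4 (−0.22) or *β-cat* control array 2 (−0.21), for *Sema3c* in rescue without rescue array 2 (−0.21) or rescue control array 1 (−0.18) or 4 (−0.23), and for *Plxna4* without rescue array 3 (−0.22) or 4 (−0.21) or rescue control array 2 (−0.18). With array weights it was lost for *Sema3c* in *Tbx1 LOF* (−0.18, unadjusted p = 0.0691) and for *Sema3a* (−0.19, unadjusted p = 0.0545). The cause was not tested.

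With the array pairs as a block (9 residual degrees of freedom), *Sema3c* in *Tbx1 LOF* had an unadjusted p of 4.0e-04 and an adjusted p of 0.207, and *Sema3a* in *β-cat LOF* an adjusted p of 0.348. The block left 0 of the 9 genes called in each comparison, and of all genes it called 0 in *Tbx1 LOF*, 2 in *β-cat LOF* and 0 in rescue. At an unadjusted p under 0.05 it gave 2 of 9 in *β-cat LOF*, the added gene being *Sema3c* (−0.14, unadjusted p = 0.0382), and it changed no other call. Under other settings 5 more differences gained an unadjusted p under 0.05: *Sema3e* in *Tbx1 LOF* without *Tbx1 LOF* array 2 (−0.24), *Nrp2* in *Tbx1 LOF* minus *β-cat LOF* without *Tbx1* control array 4 (−0.18), *Sema3a* in that contrast with array number as a term (0.20), *Sema3d* in rescue with array weights (−0.16) and *Nrp2* in *β-cat LOF* with quantile normalization repeated (0.11). Of the 27 differences between control groups, 4 passed with array number as a term, and 0 under the other settings (chosen after seeing the data).

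The sign of 22 differences turned under at least 1 setting, the largest reaching 0.11 in size. Those that turned with 1 array left out had these ranges. In *Tbx1 LOF* they were −0.1167 to 0.0038 for *Sema3a*, −0.1432 to 0.0132 for *Sema3d*, −0.0389 to 0.1815 for *Nrp1*, −0.0915 to 0.0271 for *Nrp2*, −0.0061 to 0.09 for *Plxna2*, −0.097 to 0.022 for *Plxna4* and −0.0056 to 0.091 for *Plxnd1*. In *β-cat LOF* they were −0.0235 to 0.1393 for *Sema3d*, −0.0103 to 0.0771 for *Sema3e*, −0.04 to 0.0728 for *Plxna2* and −0.0635 to 0.1087 for *Plxna4*. In rescue they were −0.1082 to 0.0791 for *Sema3a* and −0.0321 to 0.0836 for *Nrp1*. For *Tbx1 LOF* minus *β-cat LOF* they were −0.0458 to 0.0769 for *Plxna2* and −0.1377 to 0.0345 for *Plxna4*. For *Tbx1 LOF* minus rescue they were −0.1397 to 0.0477 for *Sema3a*, −0.1299 to 0.0218 for *Sema3c*, −0.0624 to 0.0939 for *Sema3d*, −0.0588 to 0.1617 for *Nrp1*, −0.0461 to 0.0724 for *Nrp2* and −0.0217 to 0.0749 for *Plxnd1*. With array weights, *Nrp2* in *Tbx1 LOF* was 0.0629, *Sema3e* and *Nrp1* in *β-cat LOF* were −0.0022 and 0.0097, and in *Tbx1 LOF* minus rescue *Sema3a* was 0.0256, *Sema3c* 0.0727, *Sema3d* 0.108 and *Plxnd1* −0.0011. With quantile normalization repeated, *Sema3e* in *β-cat LOF* was −0.0085.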
